A study of Arabidopsis thaliana with 4 samples.

Results

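The JAZ genes of Arabidopsis thaliana encode repressors of the response to the plant hormone jasmonate, and 10 of them were followed here across the peak lists of a chromatin immunoprecipitation study of TRB1, a plant protein that binds telomeric repeats through a Myb-type domain. The 10 genes were JAZ1 to JAZ6 and JAZ9 to JAZ12, chosen by locus tag out of 27432 protein-coding genes on chromosomes 1 to 5. Peaks were assigned to a gene when they touched a window of 500 bp to each side of either gene end. All 10 locus tags carry a JAZ name in the RefSeq gene table, 8 of them as the symbol and JAZ2 and JAZ9 as synonyms of TIFY10B and TIFY7. The choice of these genes was made with their peaks in these same lists known, so the counts below describe them and no test is given.

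Chromatin came from seedlings aged 14 days kept at 21 °C in days of 16 h and at 19 °C in nights of 8 h, although the labels also speak of constant light. The 4 libraries were from plants homozygous for TRB1 fused to green fluorescent protein under the TRB1 promoter, precipitated on a GFP-Trap matrix; from wild-type plants precipitated with an anti-TRB1 antibody; from wild-type plants on the GFP-Trap matrix; and from wild-type plants without the antibody. Each group had 1 library, and whether the fusion plants came from more than 1 transformed line, or still carried the plant's own TRB1, is not stated in the labels. The data were 4 lists of peaks without reads, so the depth of each library and the signal in the wild-type matrix and no-antibody controls are unknown.

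The lists differed in length and in the width of their peaks. The median width was 2081 bp over 3975 peaks in the replicate 1 list. The replicate 2 list had 7480 peaks with a median of 1728 bp, the PePr list 24219 with 510 bp and the genomic list 4995 intervals with 850 bp. Which precipitation approach gave which replicate list is not stated in the labels. The genomic list is made of stretches common to the other lists and is not independent of them: of the 7 genomic list intervals at JAZ genes, 6 had the same start and end as a PePr peak.

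JAZ proteins hold a TIFY motif, through which they recruit the adaptor NINJA and TOPLESS corepressors, and a Jas motif, through which they bind MYC transcription factors. When jasmonoyl-isoleucine accumulates, the F-box protein COI1 binds the Jas motif, the JAZ protein is degraded, and MYC2 and its relatives are released. JAZ genes are themselves among the targets of MYC2, so the repressors are made again as the response proceeds.

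JAZ genes with a peak made up 6 of 10 in the replicate 1 list, against 24.6% of all protein-coding genes. In the replicate 2 list 6 of 10 had a peak, against 41.4% of all genes, and in the PePr list 9 of 10 did, against 68.7%. In the genomic list 6 of 10 had an interval, against 19.6% of all genes. These values are a description of genes that were chosen for them. The distance between the JAZ share and the share of all genes was widest for the genomic and replicate 1 lists and narrower for the replicate 2 and PePr lists, which reached many more genes.

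**Figure D1:**
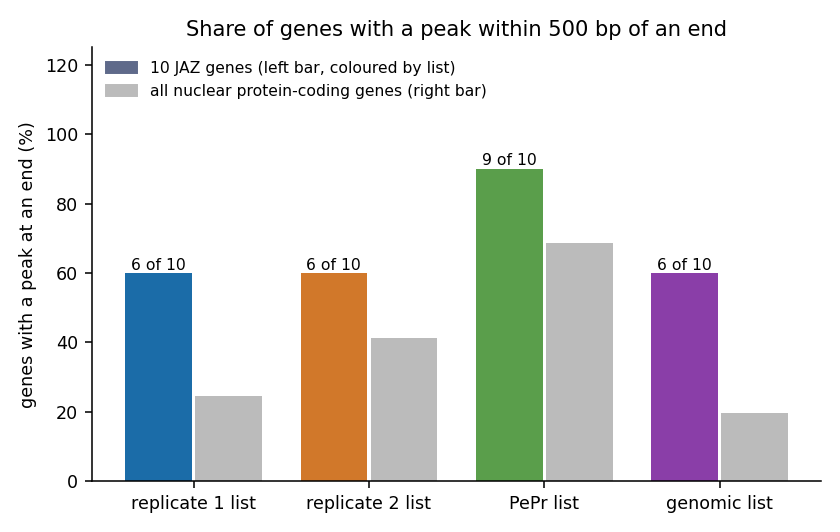
Share of genes with a peak within 500 bp of an end, in percent, for the 10 JAZ genes (left bar of each pair, with the count above) and for all 27432 nuclear protein-coding genes (right bar, grey), in each of the 4 peak lists. The JAZ bar stands at 60% in the replicate 1, replicate 2 and genomic lists and at 90% in the PePr list.

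The same 6 genes had a peak in all 4 lists: JAZ1, JAZ3, JAZ5, JAZ6, JAZ10 and JAZ12. Over all protein-coding genes this pattern was held by 19.6%. JAZ2, JAZ4 and JAZ9 had a peak in the PePr list alone, a pattern of 29.4% of all genes, and JAZ11 had none in any list, as did 26.9% of all genes. No JAZ gene of the 10 had a peak in only 1 of the replicate lists. Of all genes, 16.4% had peaks in the replicate 2 and PePr lists and 2.72% in the replicate 2 list alone. A further 1.82% had them in the replicate 1 and PePr lists and 0.496% in the replicate 1 list alone.

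JAZ6 (AT1G72450), which carries a short repression motif called EAR, had the lowest PePr p-value among the 10 genes. Its genomic list interval, 1530 bp wide (chromosome 1, 27273101 to 27274630), lay across the lower-coordinate end of the gene, with 663 bp inside it. The authors' deposited replicate 1 list gave the peak there a score of 3100, with 70.6% of that list ranked lower, and the deposited replicate 2 list gave it 2466, with 83.8% ranked lower. In the authors' deposited PePr list its p-value was 3.34e-32, with 98.7% of peaks ranked lower. The other end of JAZ6 was reached by a replicate 1 peak 5879 bp wide (chromosome 1, 27276109 to 27281987) and by a PePr peak of 510 bp, and by no replicate 2 peak.

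JAZ12 (AT5G20900), whose protein interacts with the ubiquitin ligase KEG, stood near JAZ6 in rank. Its interval of 1020 bp (chromosome 5, 7089681 to 7090700) lay outside the gene and ended 4 bp from its lower-coordinate end. The peak had a score of 3100 in the authors' deposited replicate 1 list and of 2505 in the replicate 2 list, with 70.6% and 84.0% of those lists ranked lower. The authors' deposited PePr p-value was 8.16e-15, with 82.6% of peaks ranked lower. JAZ6 and JAZ12 were the 2 genes of the 10 with an interval whose replicate 1 and replicate 2 peaks both fell in the higher-scoring 50% of their lists; 9.45% of all genes had such an interval.

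JAZ10 (AT5G13220), also known as JAS1, makes splice forms that lack part of the Jas motif and resist degradation. Its interval of 680 bp (chromosome 5, 4218381 to 4219060) lay across the lower-coordinate end, with its centre 65.5 bp outside the gene. In the authors' deposited lists the peak there scored 1397 in replicate 1 (38.5% of peaks ranked lower) and 228 in replicate 2 (26.0%), with a PePr p-value of 1.82e-12 (73.9%). A second pair of replicate peaks began at 4221551, 474 bp beyond the other end of JAZ10 and so just within the 500 bp rule. In the authors' deposited lists that pair scored 1737 in replicate 1 and 3100 in replicate 2; the genomic list interval inside it (4221951 to 4222630) was 874 bp from the gene and did not count for JAZ10.

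JAZ5 (AT1G17380), which like JAZ6 carries an EAR motif, had an interval of 510 bp (chromosome 1, 5954591 to 5955100) that ended 55 bp from its lower-coordinate end. The peak scored 1621 in the authors' deposited replicate 1 list and 354 in the replicate 2 list, with 46.2% and 37.2% of peaks ranked lower. The authors' deposited PePr p-value was 3.25e-11, with 67.0% of peaks ranked lower. The replicate 1 and replicate 2 peaks at JAZ5 shared 96.6% of their combined span, against a median of 90.1% over all overlapping pairs of replicate peaks. Over the intervals of the other genes the shared span was 65.3% at JAZ1, 86.9% at JAZ6, 88.8% at JAZ12, 89.5% at JAZ3 and 90.7% at JAZ10.

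JAZ3 (AT3G17860), the gene of the jasmonate-insensitive mutant jai3, was the only 1 of the 6 whose interval lay at the higher-coordinate end. It had 2 intervals, 680 bp across that end (chromosome 3, 6122381 to 6123060) and 186 bp outside it (6123231 to 6123416). A single peak in each replicate list covered both, with a score of 1044 in the authors' deposited replicate 1 list (24.6% of peaks ranked lower) and 111 in the replicate 2 list (6.26%). The authors' deposited PePr p-values of the 2 peaks were 3.04e-10 and 3.94e-06. The JAZ3 peak of the replicate 2 list was thus close to the bottom of that list's range, which runs from 87.6 to 3230.

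JAZ1 (AT1G19180), among the first JAZ repressors described as COI1 targets, had the interval farthest from a gene end among the 6 genes. Its interval of 340 bp (chromosome 1, 6622181 to 6622520) lay wholly inside the gene, 404 bp from the lower-coordinate end. A peak of each replicate list covered the interval and lay across that end. The wide peaks around it scored 1277 in the authors' deposited replicate 1 list (34.4% of peaks ranked lower) and 173 in the replicate 2 list (18.6%), and the PePr p-value was 1.47e-07 (33.1%). A further interval (6620651 to 6621160) lay 617 bp outside the same end, past the 500 bp rule. A second replicate 2 peak, with a score of 632, began 265 bp beyond the other end of JAZ1, where the replicate 1 list had none.

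**Figure D2:**
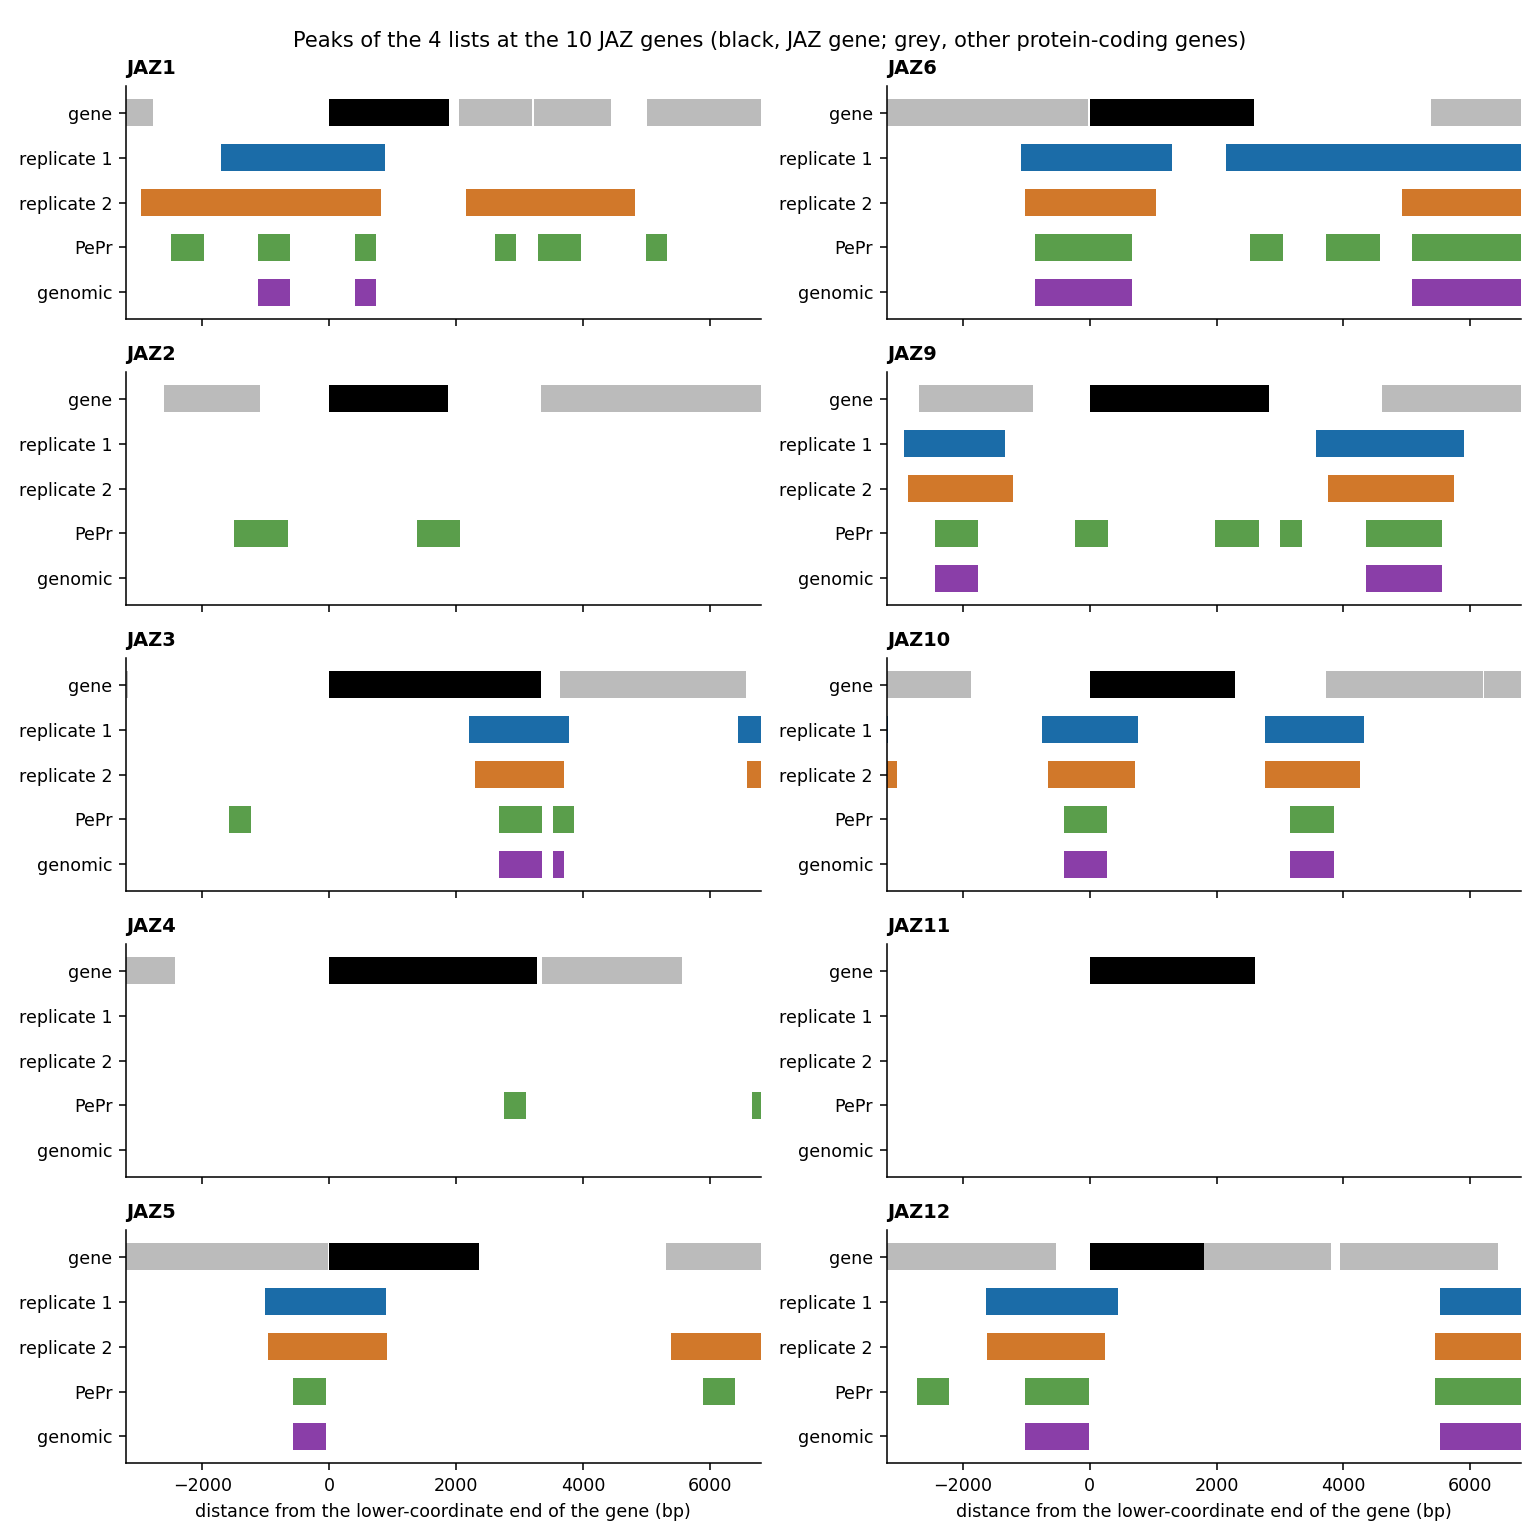
Peaks of the 4 lists around each of the 10 JAZ genes, drawn by distance in bp from the lower-coordinate end of the gene, with the JAZ gene in black, other protein-coding genes in grey, and a row of bars for each list. JAZ1, JAZ5, JAZ6, JAZ10 and JAZ12 have an interval at the lower-coordinate end, JAZ3 at the higher-coordinate end, and the window around JAZ11 holds no peak.

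The remaining genes showed PePr peaks only, or none. JAZ9 (AT1G70700), whose protein binds the DELLA protein RGA, had 3 PePr peaks at its ends, with p-values from 6.03e-12 to 2.39e-07 in the authors' deposited list. Peaks of both replicate lists flanked JAZ9 without reaching its windows: the nearer ones began 751 bp (replicate 1) and 938 bp (replicate 2) from its higher-coordinate end. JAZ2 (AT1G74950), known for its part in guard cells, had 1 PePr peak of 680 bp (chromosome 1, 28149961 to 28150640) with a deposited p-value of 2.80e-07 in the authors' list, and its nearest replicate peaks were 13158 bp and 12939 bp away.

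JAZ4 (AT1G48500), whose protein binds the flowering repressor TOE1, had 1 PePr peak of 340 bp inside the gene (chromosome 1, 17934151 to 17934490). The authors' deposited p-value of that peak was 6.03e-06, with 5.04% of the PePr list ranked lower. JAZ11 (AT3G43440) was far from any peak: the nearest PePr peak was 10086 bp from an end, and the nearest replicate 1 and replicate 2 peaks were 89763 bp and 89878 bp away. JAZ11 also had the widest spacing from other protein-coding genes, 7455 bp on its closer side, against a median for the closer side of 225 bp over the 10 JAZ genes and 190 bp over all genes.

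Seen across the 6 genes with an interval, peak rank varied widely. Of these 6, JAZ6 and JAZ12 had a peak at or above the median score in the replicate 1 list, which was 1772. In the replicate 2 list, with a median of 571, JAZ6 and JAZ12 had such a peak at the interval itself, and JAZ1 and JAZ10 through the second peak at their other end. Scores were compared only within a list, since their scale is not given. A score of 3100 was shared by 28.3% of the authors' deposited replicate 1 peaks and 11.7% of the replicate 2 peaks, so peaks at that score could not be ordered among themselves.

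**Figure D3:**
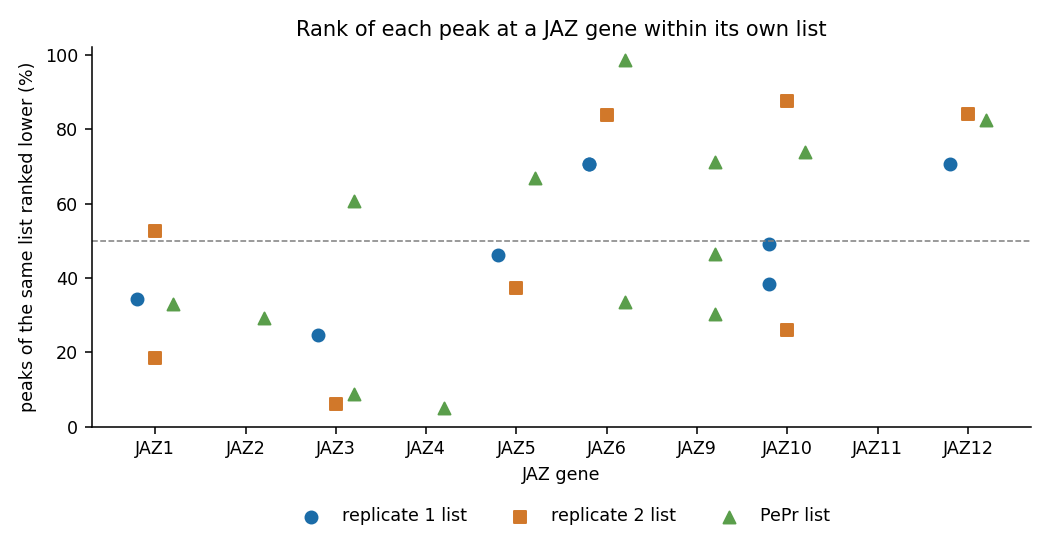
Rank of each peak that reaches a JAZ gene, as the percentage of peaks in its own list that rank lower by the authors' score (replicate 1, circles, and replicate 2, squares) or by the PePr p-value (triangles), for the 10 genes in order. The dashed line marks 50%. JAZ6 and JAZ12 lie above it in both replicate lists, JAZ3 lies at 24.6% and 6.26%, JAZ11 has no point, and 2 replicate 1 peaks of JAZ6 coincide at 70.6%.

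The replicate lists placed their peaks at nearly the same spot at 5 of these genes. The centres of the replicate 1 and replicate 2 peaks over the interval were 16.5 bp apart at JAZ3, 24.5 bp at JAZ10, 32.5 bp at JAZ5, 89.5 bp at JAZ6 and 91.0 bp at JAZ12. At JAZ1 they were 668.5 bp apart, and the replicate 2 peak began 1267 bp farther from the gene. The median over all 3690 overlapping pairs of replicate 1 and replicate 2 peaks was 60.0 bp.

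Intervals lay at a single end of each gene. In the genomic list 5 of the 6 genes were reached at the lower-coordinate end and JAZ3 at the higher-coordinate end, and none at both. In the replicate 1 list JAZ6 and JAZ10 were reached at both ends, and in the replicate 2 list JAZ1 and JAZ10 were. No strand was at hand, so these ends are not read as starts or stops of transcription. Of the 7 intervals, 3 lay across a gene end, 3 outside the gene and 1 inside it.

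Several intervals reached a neighbouring gene as well as the JAZ gene. At 4 of the 6 genes (66.7%) the interval also reached the end window of another protein-coding gene; of all genes with an interval, 72.6% shared theirs in this way. The interval of JAZ5 lay wholly inside the neighbouring gene UBP1B, which encodes an oligouridylate-binding protein and lies 11 bp from JAZ5. That of JAZ6 also reached EDA25, known as SLOW WALKER2, a nucleolar protein of ribosome assembly, 32 bp away. Both JAZ3 intervals also reached TDX, a thioredoxin with tetratricopeptide repeats that interacts with HSP70, and the JAZ12 interval also reached AT5G20890.

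When each interval was given only to the gene whose end lay nearest to its centre, JAZ3 and JAZ10 kept an interval, 2 of the 10, against 11.5% of all genes. Of the 7 intervals, 2 were nearest to the JAZ gene, 4 were nearest to the neighbour (UBP1B, EDA25, AT5G20890 and, for the narrower JAZ3 interval, TDX), and that of JAZ1 had no gene end within 500 bp of its centre. Among the 6 JAZ genes with an interval 33.3% were the nearest gene to an interval, against 58.3% among all genes with an interval. With the same rule the replicate 1 list gave a peak to JAZ1, JAZ3, JAZ6 and JAZ10 (9.6% of all genes had one), the replicate 2 list to JAZ3, JAZ6 and JAZ10 (18.9%), and the PePr list to JAZ2, JAZ3, JAZ4, JAZ6, JAZ9 and JAZ10 (47.8%). Where a peak reaches both genes of a pair, the lists do not tell to which of them it belongs.

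**Figure D4:**
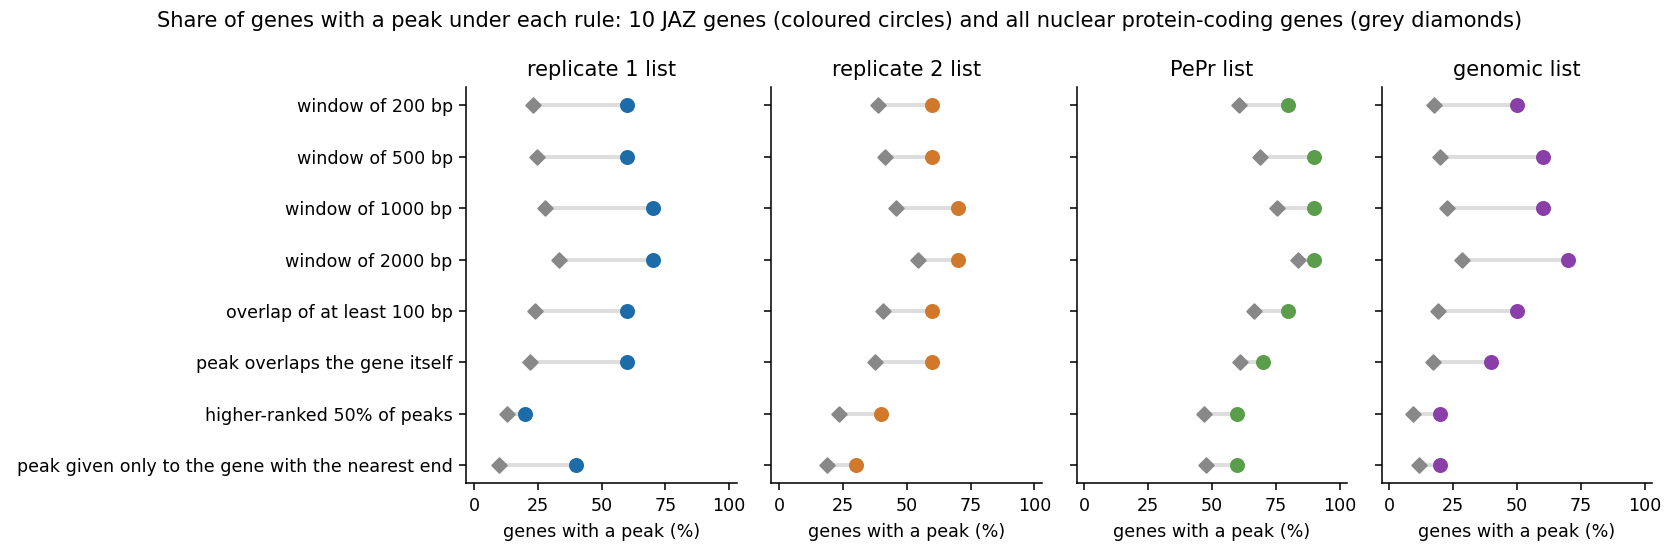
Share of genes with a peak, in percent, under 8 rules for giving peaks to genes, in a panel for each list, with the 10 JAZ genes as coloured circles and all nuclear protein-coding genes as grey diamonds. In the genomic list the JAZ share is 60% with windows of 500 bp and 20% under the nearest-end rule, and every circle in the 4 panels lies to the right of its diamond.

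The count of JAZ genes moved little with the width of the window. With windows of 200 bp 6 JAZ genes had a peak in the replicate 1 list (22.9% of all genes), 6 in the replicate 2 list (38.6%), 8 in the PePr list (60.8%) and 5 in the genomic list (17.7%), where JAZ1 was no longer reached. With windows of 1000 bp the counts were 7 (27.6%), 7 (46%), 9 (75.6%) and 6 (22.7%), and JAZ9 was the gene added in both replicate lists.

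The count was lower among peaks of higher rank. The genomic intervals carry no score, so one was kept when it overlapped peaks from the higher-scoring 50% of both replicate lists; the other lists were ranked by their own score or p-value. With the higher-ranked 50% of peaks so defined, 2 JAZ genes had a peak in the replicate 1 list (13.1% of all genes), 4 in the replicate 2 list (23.5%), 6 in the PePr list (46.9%) and 2 in the genomic list (9.45%). Peaks at or above the common score of 3100 reached JAZ6 and JAZ12 in the replicate 1 list (7.83% of all genes) and JAZ10 in the replicate 2 list (6.65%), the last through the peak beyond its higher-coordinate end.

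Counted by end, the lower-coordinate end had a peak at 5 JAZ genes in the replicate 1 list (16.2% of all genes), 5 in the replicate 2 list (28%), 6 in the PePr list (48.3%) and 5 in the genomic list (12%). The higher-coordinate end had a peak at 3 (16.1%), 3 (28%), 5 (48.4%) and 1 (11.9%).

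Several JAZ genes come as pairs with the same TIFY number, and 3 of the 4 pairs differed in their lists. No pattern of lists was held by more than 29.4% of all genes, so most pairs of genes taken at random would differ too. JAZ1 had peaks in all 4 lists, and its partner JAZ2 in the PePr list alone. JAZ3 had peaks in all 4 lists and JAZ4 in the PePr list alone, and JAZ12 had them in all 4 while JAZ11 had none. In the pair of JAZ5 and JAZ6 both genes had peaks in all 4 lists, in each case at the lower-coordinate end, where the neighbouring gene lies 11 bp and 32 bp away.

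The JAZ genes with an interval did not stand out by size. Their median length was 2324.5 bp (range 1836 to 3338), that of the 4 without an interval 2717 bp, and that of all genes 2078 bp. The median spacing on the closer side was 93.0 bp for the 6 genes with an interval and 986.5 bp for the 4 without, and 190 bp for all genes. The closer side was the side of the interval at JAZ3, JAZ5 and JAZ6. At JAZ1, JAZ10 and JAZ12 the interval lay on the other side, where the spacing was 2770 bp, 1877 bp and 534 bp. With 6 and 4 genes these values are a description.

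JAZ7 and JAZ8, which lack the canonical degron sequence and are outside the 10 listed genes, had no genomic list interval. JAZ13, also outside the 10, was left out because its name was not matched, so its peaks were not assessed. JAZ8 had no peak in any list, the nearest being a PePr peak at 4200 bp. JAZ7 was reached by a replicate 1 peak 4134 bp wide (chromosome 2, 14573437 to 14577570) and a replicate 2 peak 3487 bp wide, each with a score of 3100 in the authors' deposited lists. Both peaks had AT2G34610 as the gene with the nearest end, and the PePr peak inside them was 999 bp from JAZ7.

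Other genes of the jasmonate pathway and of the TIFY family, as 1 group, had a genomic list interval about as often as all genes did. Of 57 such genes in 7 lists by role, 11 had a genomic list interval (19.3%, against 19.6% of all genes). The 57 took in JAZ7, JAZ8 and 6 other TIFY family genes, none of which had an interval. In the replicate 1 list 19 had a peak (33.3%, against 24.6%), in the replicate 2 list 21 (36.8%, against 41.4%) and in the PePr list 39 (68.4%, against 68.7%). The lists were chosen with earlier results of these data known.

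Jasmonate synthesis genes had an interval at 5 of 16 (31.25%, against 19.6% of all genes). These were LOX3 and LOX6, lipoxygenases that start the pathway in chloroplasts; AOS, the allene oxide synthase; OPR3, the reductase that acts in peroxisomes; and PXA1, the transporter that brings precursors into peroxisomes. The LOX3 interval (chromosome 1, 5980431 to 5982617) and the PXA1 interval (chromosome 4, 18497701 to 18498890) lay under peaks that the authors' deposited replicate 1 and replicate 2 lists each score at 3100. The LOX6 peak (chromosome 1, 25324221 to 25324730) scored 1504 in the authors' deposited replicate 1 list and 1114 in the replicate 2 list. Under the nearest-end rule LOX3 and LOX6 kept an interval, and PXA1 did not. JAR1, which joins jasmonate to isoleucine, had a PePr peak alone.

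Among the receptor and corepressor genes 2 of 8 had an interval (25.0%, against 19.6% of all genes). They were the TOPLESS-related genes TPR2 (chromosome 3, 5731211 to 5732060) and TPR3 (chromosome 5, 9507251 to 9508610). Of these, TPR2 kept an interval under the nearest-end rule and TPR3 did not. The receptor gene COI1 had a PePr peak alone, NINJA had a peak in the replicate 1 and PePr lists, and TPL had none. The replicate 1 list reached 5 of these 8 genes (62.5%, against 24.6% of all genes) and the replicate 2 list 3 (37.5%, against 41.4%).

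Transcription factor genes of the pathway had an interval at 2 of 15 (13.3%, against 19.6% of all genes). At MYC2, the central activator that JAZ proteins hold back, the interval lay at chromosome 1, 11796811 to 11797966, with a score of 3100 in the authors' deposited replicate 1 list, 1808 in the replicate 2 list and a PePr p-value of 6.88e-17. At GL3, a trichome regulator that JAZ proteins bind, it lay at chromosome 5, 16531311 to 16533010, with deposited scores of 1055 and 3100 in the authors' replicate lists. Neither MYC2 nor GL3 kept an interval under the nearest-end rule. Of the relatives of MYC2, MYC3 had no peak in any list and MYC4 a PePr peak alone. MYC5 was left out because its name was not matched, and ERF1 because its locus tag was not found, so their peaks were not assessed.

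Among genes of jasmonate turnover 2 of 6 had an interval (33.3%, against 19.6% of all genes). JOX1 to JOX4, also listed, were left out because their names were not matched. The 2 genes were CYP94B1, which hydroxylates jasmonoyl-isoleucine (chromosome 5, 25409051 to 25410920), and ILL6, an amidohydrolase that cleaves it (chromosome 1, 16836461 to 16838500). Neither CYP94B1 nor ILL6 kept an interval under the nearest-end rule. None of the 4 response genes VSP1, VSP2, PDF1.2 and THI2.1 had an interval, against 19.6% of all genes. Of 6 other TIFY family genes (PPD1, PPD2, ZIM, ZML1, ZML2 and TIFY8) none had an interval, against 19.6% of all genes, and all 6 had a PePr peak, against 68.7% of all genes.

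**Figure D5:**
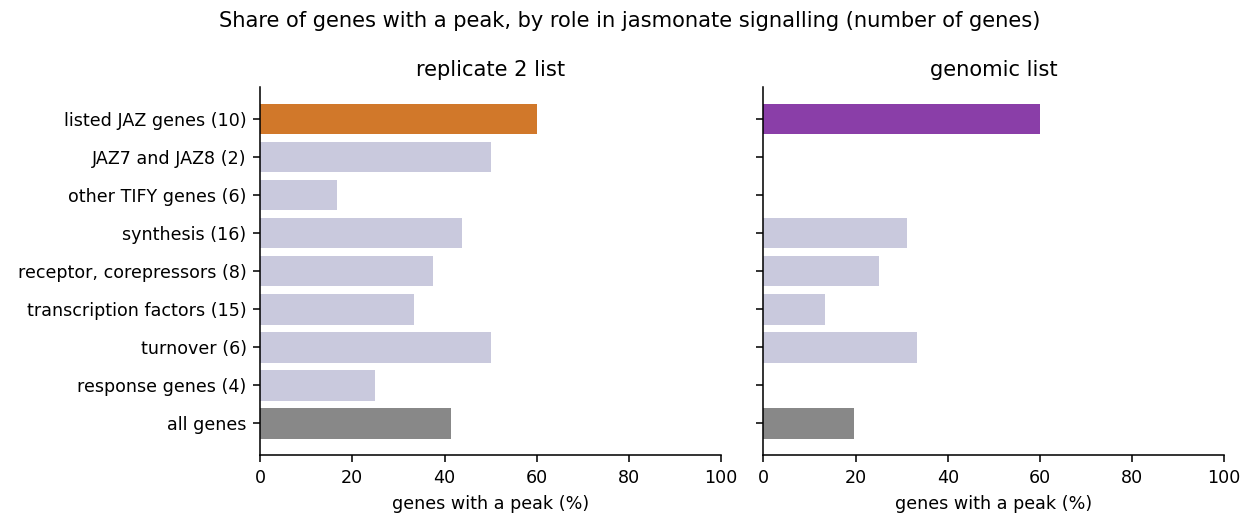
Share of genes with a peak, in percent, for the 10 listed JAZ genes (coloured), for the other jasmonate lists by role (pale, with the number of genes in brackets) and for all nuclear protein-coding genes (dark grey), in the replicate 2 list (left) and the genomic list (right). The listed JAZ genes stand at 60% in both panels, and 3 lists have no genomic list interval.

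Other gene families were set beside the JAZ genes by the shares of their members with a peak in the 4 lists, using the sum of the absolute differences in percentage points over the lists. Of 199 families of at least 8 symbols, the nearest was RPL, large-subunit ribosomal proteins, at 23.3 points, with 7 of 15 genes in the genomic list. The ECT family, readers of methylated RNA, followed at 24.5 points with 6 of 11, and the genes with RD symbols at 25.0 points with 4 of 8. A likeness in 4 shares, of lists that overlap, is a description of counts only.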

How the data were processed

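The authors deposited 4 peak lists without headers, and the values were used as they stand. Per the submitters' processing notes, Bowtie2 2.2.2, SAMtools, bedtools and MACS were used, with the builds TAIR9 and TAIR10. The thresholds, the control of each call, the build of each list and any pooling of libraries are not stated there. Each replicate peak carries a score whose scale the authors' deposited files do not name. Each PePr peak carries a p-value from the authors; the remaining PePr columns were left aside. The genomic intervals carry no values.

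Peak positions are printed counted from 1, so each start is the deposited start plus 1 and each end is as deposited. Genes came from a RefSeq table of the TAIR10.1 release, whose coordinates are not printed. Distances to gene ends assume that the lists share its chromosome coordinates, which the files do not state; 66.0% to 71.0% of genomic list centres lay within 500 bp of a gene end on each chromosome. An overlap of 1 bp with a 500 bp window counted. The table gives no strand and no sequence was used here, so windows at the transcription start and the planned motif counts were not run. No test was made, because each group had 1 library and the members and lists were chosen with earlier results of these data known. Of 64 pathway genes listed, 7 were left out. The locus tag of ERF1 was not found among the protein-coding genes used, and the names of JAZ13, MYC5 and JOX1 to JOX4 were not matched. Named genes were all 10 members, JAZ7 and JAZ8, genes sharing an interval with a member, up to 3 genes of highest mean rank per pathway list, and the 3 nearest families; AOS, OPR3, JAR1, COI1, NINJA, TPL, MYC3, MYC4, the response genes and the other TIFY genes were named after their values were seen, to complete their lists. Counts were made in Python 3.11.15 with pandas 2.3.3, and the overlap step was tested on simulated data.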

Additional observations from a re-analysis of the deposited data

How the results depend on the processing

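Over 38 alternative values of the number of JAZ genes with a peak, 28 were within 1.5 times the reported count, and in 37 the JAZ share was above that of all genes under the same rule. These values count the same peaks again, at genes chosen with those peaks known, so they are not independent support for a high JAZ share. Assigning a peak solely to the nearest gene end left 3 genes in the replicate 2 list and 2 in the genomic list. Keeping the higher-ranked 50% of peaks left 2 in the replicate 1 list and 2 in the genomic list, and keeping peaks at or above a score of 3100 left 2 in the replicate 1 list and 1 in the replicate 2 list. Windows at the higher-coordinate end alone, a setting chosen after seeing the data, left 3, 3, 5 and 1 genes in the replicate 1, replicate 2, PePr and genomic lists; the 1 genomic list gene (10.0%) is below the 11.9% of all genes. Of the 57 pathway genes, the higher-ranked 50% of peaks left 12 in the replicate 1 list (21.1%, against 13.1% of all genes) and 7 in the genomic list (12.3%, against 9.45%). Windows of 2000 bp, also chosen after seeing the data, gave 20 in the genomic list (35.1%), where the share of all genes was 28.4%, also above its 19.6% with windows of 500 bp. No paired analysis was possible because each group had 1 library and the lists carry no values per library. The cause of these differences was not tested beyond what each rule itself removes. Read depth is unknown, so no limit from depth can be given for the genes without a peak.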

Other observations

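The auxin pathway has a comparable family of hormone-degraded repressors, the Aux/IAA proteins, which were looked at after the values of the JAZ genes were seen. Of 24 genes with an IAA symbol, 5 had a genomic list interval (20.8%, against 19.6% of all genes). In the replicate 1 list 6 had a peak (25.0%, against 24.6%), in the replicate 2 list 8 (33.3%, against 41.4%) and in the PePr list 18 (75.0%, against 68.7%). No test was made of the difference between the Aux/IAA and JAZ genes.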
